A study of Mus musculus with 10 samples.

Results

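Trim59 and Galnt3 were among the genes with the smallest p-values of those lower in APP/PS1 than in WT microglia, and they are described here together with the 5 genes that flank them: Ift80, Smc4 and Kpna4 around Trim59 on mouse chromosome 3, and Csrnp3 and Ttc21b around Galnt3 on chromosome 2. The 7 genes were taken from the 24421 gene symbols in the count files. Trim59 and Galnt3 were chosen by their APP/PS1 against WT values, so those values are described without a test, and so are their values in N-AS-injected APP/PS1 against the same WT libraries. The 5 neighbours were listed by position and were tested in every comparison.

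Cortical microglia of 9-month-old mice were profiled by RNA seq in 3 groups: WT (3 libraries), APP/PS1 (4 libraries), which over-express mutant human APP (hAPP695swe) and mutant presenilin-1, and APP/PS1 given N-AS (N-acetyl sphingosine; 3 libraries), given under the skin each day at 30 mg/kg, beginning at 7 months and lasting 8 weeks. Per the study's text, the APP/PS1 mice without N-AS received vehicle, and the promoters that drive the transgenes are not given in the sources used here. Each library was a pool of a pair of mice, and the methods state that male mice were used. Total counts ran from 8805804 to 19432075 reads, and 18727 genes passed the filter on low counts, all 7 members among them.

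Some libraries went against the study's description or stood apart. Xist, which coats the inactive X chromosome in female cells, had between 33 and 37 reads per WT library and between 5253 and 11188 per APP/PS1 library. N-AS replicates 1, 2 and 3 had 7024, 8848 and 29. The Y-linked Ddx3y lay at 69.0 to 73.2 CPM (read counts scaled to a common library size by the TMM method) in WT and 73.4 in N-AS replicate 3, against 0.476 to 26.8 in the other 6 libraries. Every APP/PS1 library thus differed from every WT library in these sex-linked transcripts. In APP/PS1 against WT, the parts of sex and genotype in any difference cannot be told apart. App had 1249 ± 137 CPM in APP/PS1 and 1622 ± 188 in WT (SD, n = 4 and 3; adjusted p = 0.303 by edgeR), and whether reads of the human transgene were counted on it was not tested. All 12 microglial markers were detected in every library, with a summed level in WT of 766 to 1113 CPM, in APP/PS1 of 2276 to 2965 and with N-AS of 1470 to 1865. The choroid plexus marker sum was 8.20 CPM in WT replicate 3 and 7.98 in N-AS replicate 3, against 403 to 1208 elsewhere, and the neuronal sum was 4859 in WT replicate 3 against 1438 to 2789 elsewhere. The sum of the 8 astrocyte markers ran from 2262 to 3942 CPM and lay above the microglial sum in all 10 libraries. The oligodendrocyte and neuronal sums also lay above the microglial sum in every WT library. These sums rest on different genes, so they do not give the shares of the cell types. Which cells the Trim59 and Galnt3 reads came from was not tested. In bulk RNA, fewer cells of a type and less RNA per cell cannot be told apart.

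TRIM59 belongs to the tripartite motif family of RING-type E3 ubiquitin ligases and is anchored in membranes. GALNT3 is a polypeptide N-acetylgalactosaminyltransferase of the Golgi, which starts mucin-type O-glycosylation and is known for protecting the hormone FGF23 from cleavage. Their neighbours do other work. IFT80 and TTC21B (IFT139) are subunits of the intraflagellar transport complexes B and A that move cargo along cilia. SMC4 is an ATPase subunit of condensin, and KPNA4 is an importin alpha that carries proteins into the nucleus. CSRNP3 is a nuclear protein of the cysteine and serine rich family.

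On GRCm38, the build of the files (mm10), the chromosome 3 genes run Ift80 (68892499 to 69004570, minus strand), Smc4 (69004738 to 69034623, plus), Trim59 (69035288 to 69044755, minus) and Kpna4 (69067149 to 69127113, minus). Ift80 and Smc4 start 167 bases apart and point away from each other, whereas Smc4 and Trim59 end 664 bases apart and point toward each other. Kpna4 ends 22393 bases from the start of Trim59. On chromosome 2, Csrnp3 (65845767 to 66031546, plus) lies 51219 bases on one side of Galnt3 (66082766 to 66124994, minus), and Ttc21b (66184327 to 66256617, minus) lies 59332 bases on the other. No annotated gene overlaps Trim59 or Galnt3. Antisense genes overlap Ttc21b and Csrnp3, and a pseudogene on the opposite strand overlaps Ift80. Whether counting used strand is not given in the sources used here, so reads of these genes and their opposite-strand partners could not be told apart. On the same strand, pseudogenes and an unconfirmed gene overlap Ift80, a small RNA and an unconfirmed gene overlap Kpna4, and microRNA hairpins overlap Smc4.

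The start regions of the pair that was lower in both APP/PS1 groups are shown because they share a base composition. Each is 300 bases around the annotated start (RefSeq, GRCm38.p6, read on the gene's own strand), from chr3:69044693-69044992 for Trim59 and chr2:66124744-66125043 for Galnt3. The gene positions above come from another annotation, GENCODE M21. Against those positions, most of the Galnt3 window lies inside the gene and most of the Trim59 window lies outside it. Capitals mark the GC box GGGCGG on either strand.
Trim59: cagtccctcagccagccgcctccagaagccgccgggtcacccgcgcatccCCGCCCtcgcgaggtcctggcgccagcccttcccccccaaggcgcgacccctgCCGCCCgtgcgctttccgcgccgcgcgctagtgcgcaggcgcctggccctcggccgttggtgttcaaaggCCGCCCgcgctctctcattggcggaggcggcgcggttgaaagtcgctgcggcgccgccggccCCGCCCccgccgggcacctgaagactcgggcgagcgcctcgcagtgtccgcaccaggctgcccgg
Galnt3: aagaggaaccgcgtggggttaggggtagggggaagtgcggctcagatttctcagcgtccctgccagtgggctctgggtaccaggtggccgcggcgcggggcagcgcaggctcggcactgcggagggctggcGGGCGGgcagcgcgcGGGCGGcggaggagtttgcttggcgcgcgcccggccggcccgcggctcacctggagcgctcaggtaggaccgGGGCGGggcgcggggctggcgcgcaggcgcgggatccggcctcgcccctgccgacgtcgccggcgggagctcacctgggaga
Both were 76.7% G or C, against a median of 52.7% over 32851 promoters of the same length, and they held 44 and 41 CpG dinucleotides, against a median of 7. Trim59 held 4 GC boxes and Galnt3 held 3, and 35.7% of all promoters held at least 1. The CCAAT box (37.4% of promoters) was matched once in Trim59 and not in Galnt3, and the letters TATAAA (13.6% of promoters) in neither. Among the neighbours, the Kpna4 and Ttc21b promoters held 1 GC box each, 68.7% and 67.0% G or C, and 27 and 23 CpG dinucleotides. These also lay above the medians, so a high content was not particular to Trim59 and Galnt3. The pair of Csrnp3 promoters held no GC box, 49.3% and 48.0% G or C, and 5 and 11 CpG dinucleotides. Whether base composition bears on the levels was not tested. Smc4 and Ift80 were not matched in the promoter table.

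Trim59 was lower in every APP/PS1 library, with or without N-AS, than in any WT library. WT replicates 1, 2 and 3 had 110, 213 and 187 Trim59 reads, or 13.1, 13.2 and 9.02 CPM. The 4 APP/PS1 libraries had 56, 52, 54 and 103 reads, or 4.83, 4.30, 3.69 and 4.90 CPM, and the 3 N-AS libraries had 67, 78 and 67 reads, or 4.41, 4.14 and 4.95 CPM. WT replicate 3 was the lowest WT library, and it still lay above all 7 APP/PS1 libraries. Over all genes tested, 14.9% had no overlap between the APP/PS1 and WT libraries and 8.81% had none between the N-AS and WT libraries. The group means were 11.8 ± 2.38 CPM in WT, 4.43 ± 0.564 in APP/PS1 and 4.50 ± 0.414 in N-AS-injected APP/PS1 (SD, n = 3, 4 and 3), a log2 fold change of −1.40 (SE 0.19) for APP/PS1 against WT and −1.38 (SE 0.20) for N-AS-injected APP/PS1 against WT. The labels number the libraries through the series, with replicates 1 and 2 of each group as numbers 1 to 6. Within these the APP/PS1 against WT difference was −1.50 on the log2 scale, and within numbers 7 to 10, with a single WT library, it was −1.06.

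Galnt3 was lower in APP/PS1 by a larger factor. The WT replicates had 156, 281 and 540 reads, or 18.5, 17.4 and 26.0 CPM, whereas APP/PS1 replicates 1 to 4 had 20, 38, 74 and 97 reads, or 1.73, 3.14, 5.06 and 4.62 CPM. The N-AS replicates had 25, 52 and 26 reads, or 1.65, 2.76 and 1.92 CPM. The highest APP/PS1 library (5.06 CPM) lay far below the lowest WT library (17.4 CPM). The means were 20.7 ± 4.69 CPM in WT, 3.64 ± 1.51 in APP/PS1 and 2.11 ± 0.578 in N-AS-injected APP/PS1. The log2 fold change was −2.49 (SE 0.32) for APP/PS1 against WT and −3.28 (SE 0.37) for N-AS-injected APP/PS1 against WT. Within numbers 1 to 6 and 7 to 10 the APP/PS1 against WT differences were −2.88 and −2.40 on the log2 scale.

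**Figure D1:**
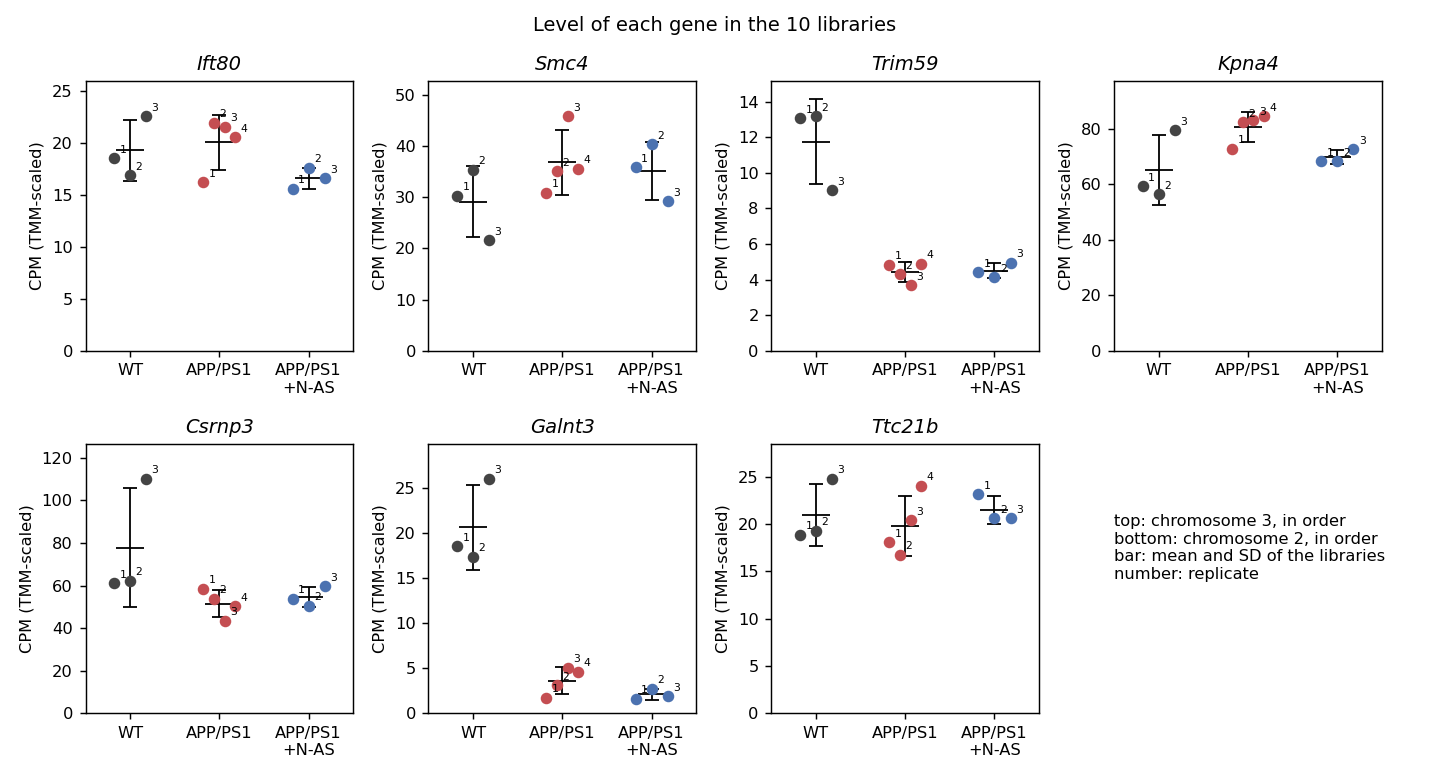
Level of each of the 7 genes in CPM (y axis, from 0) in the 3 groups (x axis); points are libraries numbered by replicate, and bars give the mean and SD. Trim59 and Galnt3, chosen by their APP/PS1 against WT values, separated WT from both APP/PS1 groups by a wide gap, while the other genes overlapped or nearly met. WT replicate 3 stood high for Csrnp3 at 110 CPM.

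Other features of the libraries are given beside the Trim59 and Galnt3 levels. N-AS replicate 3 was like WT replicate 3 in Xist (29 and 33 reads), Ddx3y (73.4 and 69.0 CPM) and the choroid plexus sum (7.98 and 8.20 CPM). The sum of 10 oligodendrocyte markers (2943 and 2466 CPM) followed the library numbers. It was 1981 to 2943 CPM in the libraries numbered 7 to 10, against 3917 to 7139 in those with lower numbers. A low sum was thus not particular to N-AS replicate 3 and WT replicate 3. These replicates differed in the neuronal sum (2789 and 4859 CPM) and the microglial sum (1470 and 1113 CPM). The Galnt3 level of N-AS replicate 3 was 1.92 CPM against 26.0, and its Trim59 level 4.95 CPM against 9.02. Both levels were near those of the APP/PS1 libraries. This sets a single library against another, for genes chosen by low values in APP/PS1. Without N-AS replicate 3 and WT replicate 3 together, a choice made after seeing the data, the APP/PS1 against WT log2 fold change was −1.55 for Trim59 and −2.27 for Galnt3. The microglial marker sums were higher in APP/PS1 (9 of 12 markers rose, median log2 fold change 1.45), and 2 of 10 oligodendrocyte markers fell (median −1.31; the sum ran over 2466 to 7139 CPM for WT libraries, 1981 to 4775 for APP/PS1 and 2943 to 4023 with N-AS). Of all 18727 genes tested, 500 were called higher and 149 lower in APP/PS1 against WT. The astrocyte and proliferating cell sets had 1 marker each called higher, and no marker of the remaining sets was called. Median log2 fold changes were 1.482 for proliferating cells, 1.199 for choroid plexus, 0.663 for ependymal and 0.170 for endothelial markers. They were −0.054 for astrocytes, −0.342 for neurons and −0.100 for oligodendrocyte precursors. No microglial or oligodendrocyte marker was at 0 in any library. The parts of sex and cell composition in the Trim59 and Galnt3 levels were not tested.

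None of the neighbours of Trim59 fell past the threshold. Of all genes tested, 3.47% passed an adjusted p of 0.05 in APP/PS1 against WT (the quasi-likelihood test of edgeR, Benjamini-Hochberg adjusted), and 0 of the 5 neighbours did. At an unadjusted p under 0.05 there were 2 of the 5, against 17.2% of all genes. Ift80 had 18.5, 16.9 and 22.6 CPM in WT, 16.2, 22.0, 21.6 and 20.6 in APP/PS1 and 15.6, 17.7 and 16.6 with N-AS. These groups overlapped, and the log2 fold change for APP/PS1 against WT was 0.05 (SE 0.15, 95% interval −0.28 to 0.38, adjusted p = 0.897). Smc4, whose end lies nearest to that of Trim59, had 30.3, 35.4 and 21.6 CPM in WT, 30.9, 35.0, 45.8 and 35.6 in APP/PS1 and 35.8, 40.4 and 29.2 with N-AS. Its log2 fold change for APP/PS1 against WT was 0.34 (SE 0.20, interval −0.09 to 0.78, adjusted p = 0.417), opposite in sign to that of Trim59, and WT replicate 3 was the lowest of the 10 libraries. Within library numbers 1 to 6 the Smc4 difference was 0.007, and within numbers 7 to 10, against that WT library, it was 0.90; for Ift80 these values were 0.09 and −0.10. Kpna4 had 59.3, 56.5 and 79.6 CPM in WT, 72.9, 82.4, 83.2 and 84.7 in APP/PS1 and 68.4, 68.5 and 72.8 with N-AS. Kpna4 was higher in APP/PS1 by a log2 fold change of 0.31 (SE 0.14, interval 0.01 to 0.61), which missed the threshold (adjusted p = 0.281). Within the 2 sets of library numbers it was 0.42 and 0.08. Without WT replicate 3, the highest WT library for this gene, it was 0.49 with an adjusted p of 0.0331, and over all alternatives the adjusted p ran from 0.0331 to 0.485.

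At the Galnt3 locus neither Ttc21b nor Csrnp3 passed the test, and Csrnp3 was the lower of the pair relative to WT. Ttc21b had 18.9, 19.3 and 24.8 CPM in WT, 18.1, 16.8, 20.4 and 24.0 in APP/PS1 and 23.2, 20.6 and 20.6 with N-AS. The groups overlapped, with a log2 fold change of −0.08 for APP/PS1 against WT (SE 0.16, interval −0.43 to 0.26, adjusted p = 0.840) and differences of −0.13 and −0.16 within the sets of library numbers. Csrnp3 had 61.0, 62.3 and 110 CPM in WT, 58.4, 53.7, 43.5 and 50.3 in APP/PS1 and 53.8, 50.5 and 59.7 with N-AS. Its WT libraries all lay above both APP/PS1 groups, as did 14.9% and 8.81% of all genes in these comparisons, in either direction. The log2 fold changes were −0.60 (SE 0.20, adjusted p = 0.156) and −0.51 (SE 0.22, adjusted p = 0.702). Csrnp3 rested on WT replicate 3, the library with the highest neuronal marker sum: without it and N-AS replicate 3 the APP/PS1 against WT value was −0.25, within library numbers 1 to 6 it was −0.14, and within 7 to 10 it was −1.23. The part of neuronal RNA in the Csrnp3 level was not tested.

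Counting the reads of one gene against those of its neighbour in the same library removes the library's depth and scaling from the comparison. Per 100 Smc4 reads there were 43.1, 37.3 and 41.7 Trim59 reads in the WT libraries, 15.6, 12.3, 8.05 and 13.8 in APP/PS1 and 12.3, 10.2 and 17.0 with N-AS. Against Smc4, WT replicate 3 lay between the other WT libraries. Per 100 Kpna4 reads, Trim59 had 11.3 to 23.3 reads among WT libraries, 4.43 to 6.63 among APP/PS1 and 6.04 to 6.80 with N-AS, and per 100 Ift80 reads 39.9 to 78.0, 17.1 to 29.8 and 23.4 to 29.8. Per 100 Ttc21b reads there were 98.1, 90.1 and 105 Galnt3 reads in WT, 9.52, 18.7, 24.8 and 19.2 in APP/PS1 and 7.10, 13.4 and 9.32 with N-AS. WT libraries thus held about as many Galnt3 as Ttc21b reads, and the APP/PS1 libraries held at most 24.8 per 100. Per 100 Csrnp3 reads Galnt3 had 23.7 to 30.4 reads among WT libraries, 2.95 to 11.6 among APP/PS1 and 3.06 to 5.46 with N-AS. These ratios use the values that chose Trim59 and Galnt3 and are given without a test.

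**Figure D2:**
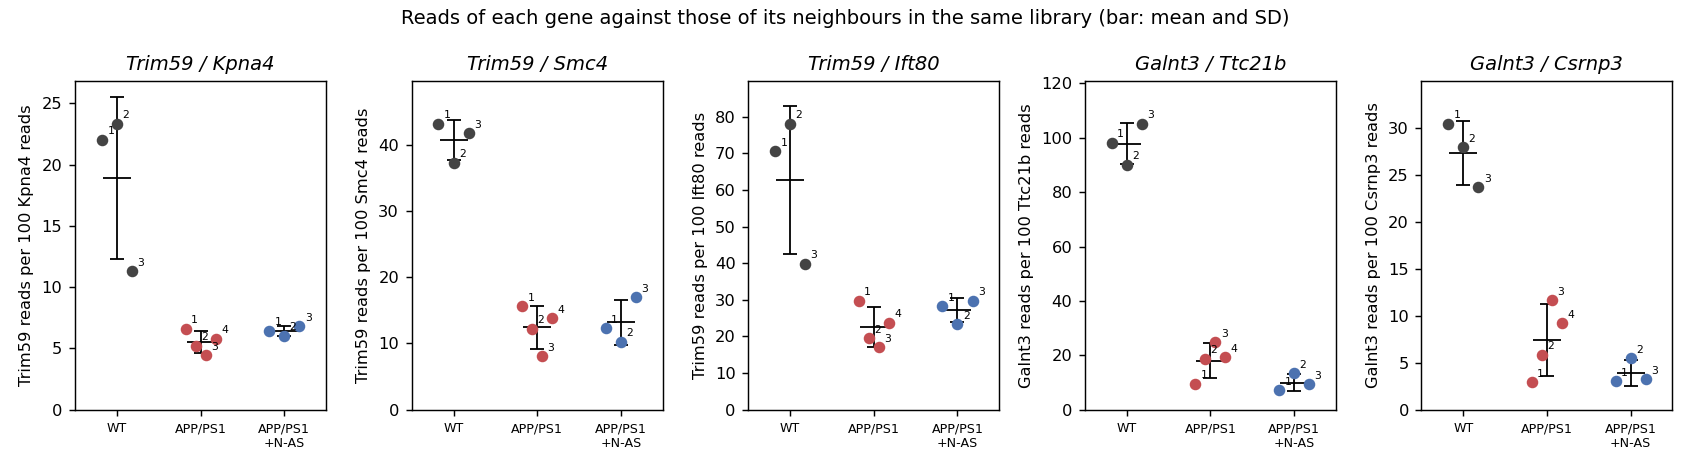
Reads of Trim59 per 100 reads of Kpna4, Smc4 or Ift80, and of Galnt3 per 100 reads of Ttc21b or Csrnp3 (y axes, from 0), in the 3 groups (x axis); points are libraries numbered by replicate, bars the mean and SD. In all 5 ratios every WT library lay above every APP/PS1 library, including Trim59 against Ift80 (lowest WT library 39.9, highest APP/PS1 library 29.8).

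N-AS left no member past the threshold against vehicle-treated APP/PS1. In this comparison 0% of the genes tested were called by edgeR (0 genes, with 1653 of 18727, or 8.83%, at an unadjusted p under 0.05 and 79 called by DESeq2), and it shares the APP/PS1 libraries on which Trim59 and Galnt3 were chosen. The Trim59 log2 fold change was 0.02 (SE 0.19, 95% interval −0.41 to 0.45, adjusted p = 0.988). Galnt3 differed by −0.79 (SE 0.35, interval −1.56 to −0.03, adjusted p = 0.556), which is further from WT, and the 3 N-AS libraries overlapped the APP/PS1 libraries. This difference was −0.12 on the log2 scale within library numbers 1 to 6 and −1.27 within numbers 7 to 10, where APP/PS1 replicates 3 and 4 had the highest Galnt3 levels of their group. Among the neighbours, Kpna4 had the N-AS libraries just below the APP/PS1 libraries (highest 72.8 against lowest 72.9 CPM), as 12.7% of all genes had no overlap in this comparison, with a log2 fold change of −0.21 (SE 0.14, adjusted p = 0.686). Ift80 was at −0.27 (SE 0.15, adjusted p = 0.625), Smc4 at −0.07 (SE 0.19, adjusted p = 0.947), Ttc21b at 0.11 (SE 0.16, adjusted p = 0.875) and Csrnp3 at 0.09 (SE 0.20, adjusted p = 0.934).

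Between N-AS-injected APP/PS1 and WT, which shares the WT libraries with the first comparison, 0.187% of genes were called by edgeR and 0 of the 5 neighbours, with Csrnp3 alone at an unadjusted p under 0.05 (6.73% of all genes) and no call by DESeq2. Their log2 fold changes were 0.28 for Smc4 (adjusted p = 0.863), 0.10 for Kpna4 (adjusted p = 0.952), 0.03 for Ttc21b (adjusted p = 0.994) and −0.22 for Ift80 (adjusted p = 0.859), in addition to Csrnp3 above. The intervals were −0.57 to 0.13 for Ift80 and −0.34 to 0.40 for Ttc21b.

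Per kilobase of annotated exon, the order of the levels changed between WT and APP/PS1 for Trim59 and Galnt3, and Csrnp3 and Smc4 also changed places. In WT the order was Kpna4 (7.29 CPM per kb), Csrnp3 (6.30), Smc4 (5.58), Galnt3 (4.72), Trim59 (3.51), Ttc21b (2.26) and Ift80 (1.56), and the libraries of neighbours in this order overlapped among the first 4 genes but not below. Galnt3 and Trim59 lay above both intraflagellar transport genes in WT. In APP/PS1 the order was Kpna4 (9.04), Smc4 (7.07), Csrnp3 (4.17), Ttc21b (2.14), Ift80 (1.62), Trim59 (1.32) and Galnt3 (0.831), so Trim59 and Galnt3 took the lowest places, and the libraries of Kpna4 and Smc4, of Ift80 and Trim59 and of Trim59 and Galnt3 overlapped. With N-AS, Kpna4 (7.82) and Smc4 (6.75) overlapped, as did Trim59 (1.34) and Ift80 (1.34), and Galnt3 (0.482) lay below all others. These lengths join the exons of all annotated transcripts, so a level is understated where only a short transcript is used.

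Further along both chromosomes no gene around Trim59 or Galnt3 fell past the threshold in edgeR's test. Of the 10 nearest protein-coding genes on each side of Trim59, 18 of 20 were tested, and in APP/PS1 against WT 1 was called higher and none lower. Of these 18, 13 had a log2 fold change below 0 and 5 above, and the median was −0.39, against −0.07 over all genes tested. The gene called higher was Mfsd1, a lysosomal membrane transporter 1431050 bases from Trim59, with 23.8 CPM in WT and 42.5 in APP/PS1 (log2 fold change 0.84, SE 0.16, adjusted p = 0.0186). Mfsd1 passed under 13 of 17 alternatives (adjusted p from 0.000187 to 0.0799), and not when WT replicate 1, APP/PS1 replicate 3 or APP/PS1 replicate 4 was left out. Of the 20 genes around Galnt3, 19 were tested and none passed by edgeR, against 3.47% of all genes. Here 16 had a log2 fold change below 0 and 3 above, and the median was −0.38. Of the 18 genes tested around Trim59, 4 had an unadjusted p under 0.05, and of these 19, 6 did, against 17.2% of all genes. The lowest adjusted p there was that of Gca, which encodes the calcium-binding protein grancalcin, at −0.43 (SE 0.13, adjusted p = 0.102). It was called by DESeq2 alone among the 17 alternatives (adjusted p = 0.0333, range 0.0333 to 0.248). In N-AS-injected against vehicle-treated APP/PS1 no neighbour passed by either tool (1 at an unadjusted p under 0.05; medians 0.04 and 0.07, against −0.01 over all genes), nor did any in N-AS-injected APP/PS1 against WT (1 at each locus unadjusted; medians −0.10 and −0.19, against −0.04).

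**Figure D3:**
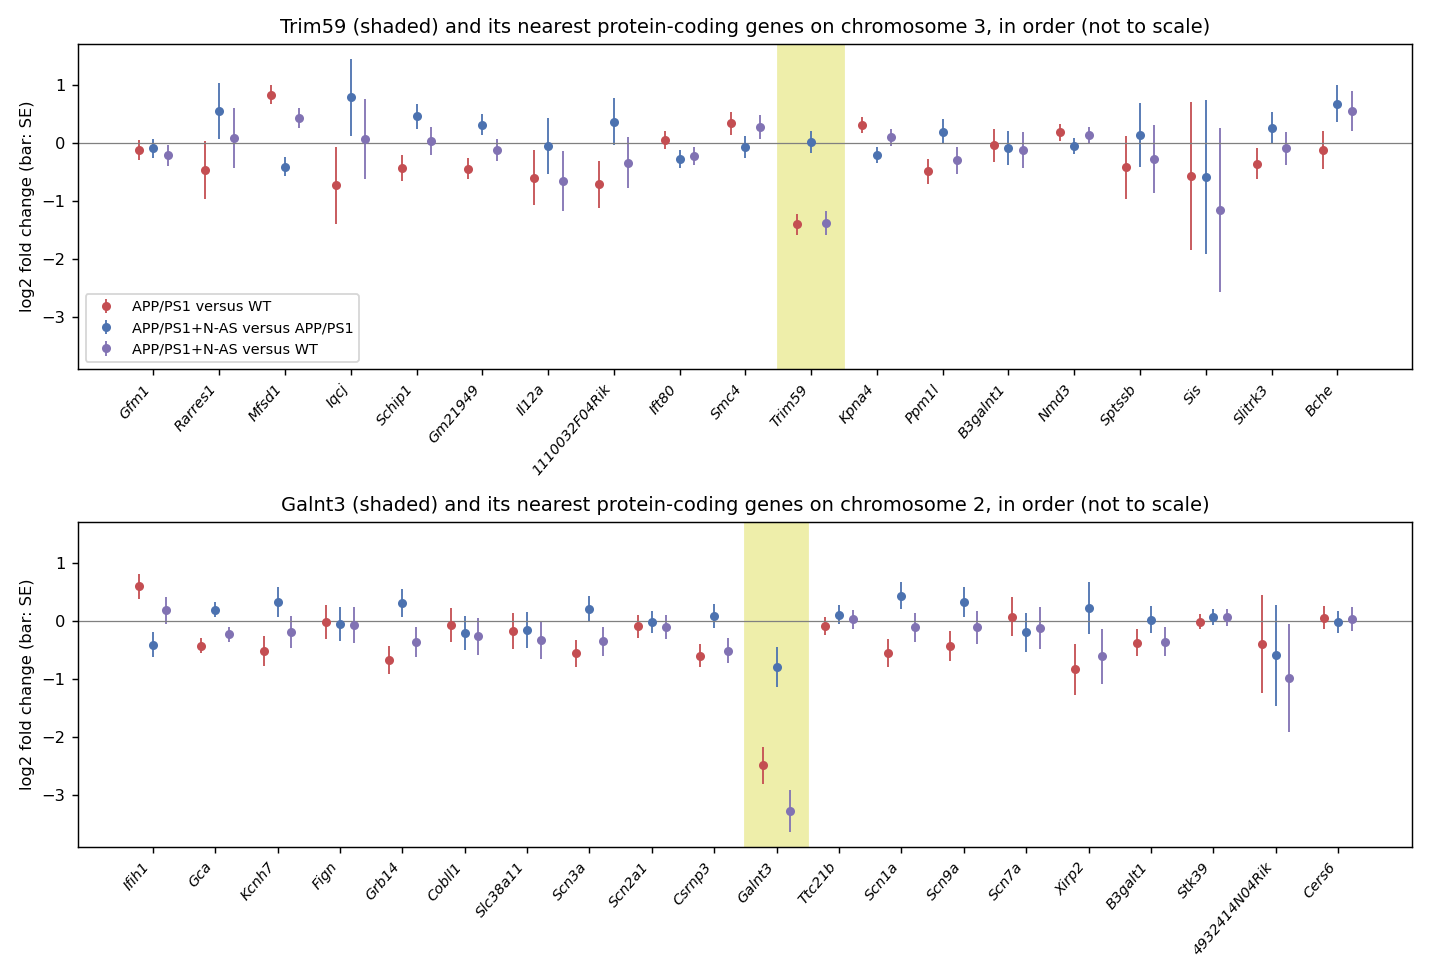
Log2 fold change with its SE (y axis) for Trim59, Galnt3 and the tested genes among their 10 nearest protein-coding genes on each side (x axis, order along the chromosome, not distance), in the 3 comparisons. Trim59 (−1.40) and Galnt3 (−2.49), chosen for low values in APP/PS1 against WT, lay below the tested genes beside them in that comparison. In the same comparison Mfsd1 (0.84) was the highest at the Trim59 locus.

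The families of the 7 genes are counted without Trim59 and Galnt3 and read against all genes tested, of which 3.47% were called in APP/PS1 against WT and 17.2% had an unadjusted p under 0.05. Of 17 other GalNAc transferases tested (Galnt17 was not matched by its symbol), none passed in any comparison by edgeR (4 at an unadjusted p under 0.05 in APP/PS1 against WT, 2 in N-AS-injected against vehicle-treated APP/PS1 and 1 in N-AS-injected APP/PS1 against WT), and the median log2 fold change for APP/PS1 against WT was 0.01. The lowest after Galnt3 were Galnt5 (1.85 CPM in WT and 0.651 in APP/PS1; −1.43, adjusted p = 0.307) and Galnt6, with 26.4 CPM in WT, 11.9 in APP/PS1 and 15.3 with N-AS (−1.15, SE 0.35, adjusted p = 0.106), both named after their values were seen. DESeq2 called Galnt6 (adjusted p = 0.0267), as did edgeR without WT replicate 3 and with library numbers as a covariate, and over 17 alternatives the adjusted p ran from 0.0153 to 0.266. The most abundant transferase by reads, Galnt13, was at 0.45 (SE 0.41, adjusted p = 0.643). Of the 17, 9 had an APP/PS1 against WT log2 fold change above 0 and 8 below. The highest was Galnt12 at 0.60 (SE 0.21, adjusted p = 0.164), also named after its values were seen. Of 65 other Trim genes in the files 50 were tested, and 1 rose in APP/PS1 against WT: Trim30d, an interferon-inducible gene of the Trim30 cluster, from 8.26 to 22.6 CPM (log2 fold change 1.46, SE 0.27, adjusted p = 0.0157). Trim30d passed under 14 of 17 alternatives (adjusted p from 2.38e-05 to 0.0711), and not without WT replicate 1 or APP/PS1 replicate 4; it has close paralogs whose reads the counting could have split. No other Trim gene was called by edgeR as run here. The nearest to the threshold was Trim30a, at 1.16 (SE 0.28, adjusted p = 0.0508). It was called higher by DESeq2 (adjusted p = 0.00241), with total counts (0.0472) and without WT replicate 3 and N-AS replicate 3 (0.0410). DESeq2 also called Trim12a higher (adjusted p = 0.0438). Trim46 was at −0.76 (SE 0.20, adjusted p = 0.0635) and was called lower by DESeq2 and with total counts or upper-quartile normalization (adjusted p from 0.0141 to 0.0481 in these). Trim30a, Trim12a and Trim46 were named after their values were seen. No Trim gene passed in the other comparisons by edgeR (4 at an unadjusted p under 0.05 in each) or DESeq2.

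The remaining lists had 0 members past the threshold in APP/PS1 against WT, which at their sizes is near the share of 3.47% over all genes. Intraflagellar transport complex A had 0 of 6 members past the threshold (1 at an unadjusted p under 0.05, median −0.19) and complex B 0 of 18 (1 unadjusted, median −0.05). Condensin had 0 of 8 (0 unadjusted, median 0.04), the importins 0 of 6 tested (1 unadjusted, median 0.05) and the Csrnp family 0 of 3 (1 unadjusted), in which Csrnp2 (0.61, adjusted p = 0.430) and Csrnp1 (0.37, adjusted p = 0.658) had signs opposite to Csrnp3. In both N-AS comparisons these lists had 0 members past the threshold; at an unadjusted p under 0.05 there were 2 of complex B against vehicle-treated APP/PS1 and 1 of the Csrnp family, Csrnp3, against WT. By DESeq2 none of these 5 lists had a call in any comparison.

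**Figure D4:**
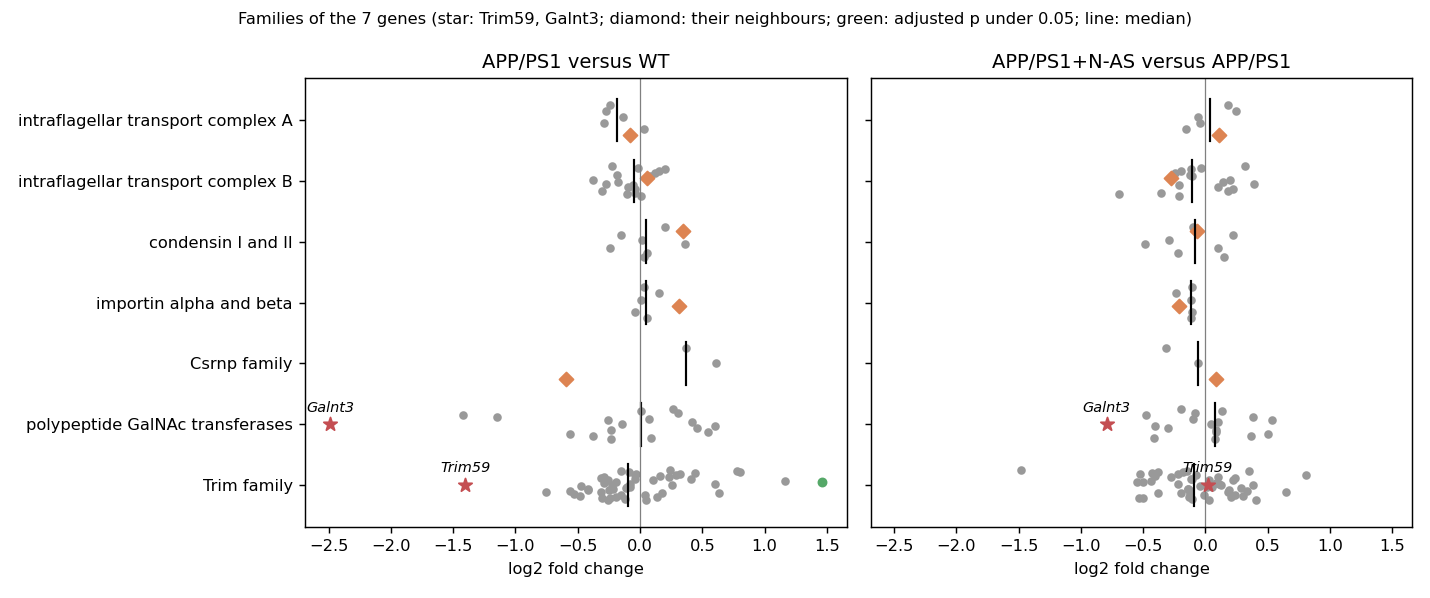
Log2 fold change (x axis) of every tested gene of 7 families (rows) in APP/PS1 against WT and in N-AS-injected against vehicle-treated APP/PS1; stars mark Trim59 and Galnt3, diamonds their neighbours, green points an adjusted p under 0.05, and black lines the family's median without Trim59 and Galnt3. Galnt3 (−2.49) and Trim59 (−1.40), chosen for low values in APP/PS1 against WT, lay at the low end of their families in the first panel. Trim30d (1.46) was the single green point.

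Across the 10 libraries, the levels of Trim59 and Galnt3 followed each other (Pearson r = 0.84 of log2 CPM), but both were chosen for low values in APP/PS1. Correlations here describe 10 libraries that share groups, and they carry no test. Trim59 had r = −0.69 with Kpna4, −0.50 with Smc4, −0.04 with Ift80 and 0.57 with Csrnp3, and Galnt3 had r = 0.17 with Ttc21b and 0.60 with Csrnp3. The genes most like Trim59 over the 10 libraries were Sema6a, a transmembrane semaphorin (r = 0.97, 77.9 CPM in WT, 41.9 in APP/PS1 and 46.9 with N-AS), Zeb2, a zinc finger transcription factor (r = 0.96, 244 to 189 and 193), Gstp1, a glutathione transferase (r = 0.93), Slc13a1, a sulfate transporter (r = 0.93), and the predicted gene Gm6588 (r = 0.93). Those most like Galnt3 were Amd2, an S-adenosylmethionine decarboxylase (r = 0.91, 86.8 CPM in WT, 63.9 in APP/PS1 and 62.5 with N-AS), AA465934 (r = 0.90), Ankrd28 (r = 0.90), Ccdc42 (r = 0.89) and Kctd4 (r = 0.88). All 10 had negative log2 fold changes for APP/PS1 against WT, from −0.37 (Zeb2) to −2.23 (Slc13a1). This shared sign follows from choosing genes by a high correlation with Trim59 or Galnt3 in the same libraries, and it is no separate result. Gstp1 and Amd2 have near-identical copies between which reads could have been split.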

How the data were processed

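RNA seq was performed on microglia separated from papain-dissociated cortex on a density gradient. Libraries were rRNA-depleted and stranded, and paired reads were aligned with TopHat to mm10 per the submitters' processing notes, which also list edgeR. The authors deposited whole-number read counts per gene, without normalization; versions, annotation and strand setting are not given in the sources used here. Lines that shared a symbol (103 lines, 43 symbols) were summed.

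Groups came from the labels, and they do not say that the pools were prepared separately, so p-values measure the spread between these libraries, which may be in part technical. Counts were filtered with filterByExpr, scaled by TMM and tested with edgeR 4.0.16 in R 4.3.3 (glmQLFit and glmQLFTest, 1 fit of 3 groups, no covariate). P-values were adjusted by Benjamini-Hochberg over 18727 genes, with a threshold of 0.05. Log2 CPM used a prior count of 2, and intervals are 95% intervals from the fit. Counting error falls with depth, and PCR reads without molecular identifiers understate it. Totals ran from 8805804 to 19432075. The fit was tested on simulated data.

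The 7 genes and all lists were chosen with earlier results of these data known. Lists were the 10 nearest protein-coding genes per side (GENCODE M21), intraflagellar transport complexes A and B, condensins, importins, GalNAc transferases, the Csrnp and Trim families, and markers of 9 cell types. The text names the members, list genes past the threshold, the nearest tested neighbours, the 5 genes with the highest correlation per locus gene, and label checks. Gca, Galnt5, Galnt6, Galnt12, Galnt13, Trim12a, Trim30a, Trim46, Csrnp1 and Csrnp2 were named after their values were seen.

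Alternatives were DESeq2 1.42.0, limma 3.58.1 (voom, quantile normalization), total counts, upper-quartile normalization, other filters (1 read in all, or at least 10 counts per library), the replicate number as a block, library numbers 1 to 6 against 7 to 10 as a covariate, the 2 groups alone, each library left out, and WT 3 with N-AS 3 left out (added after seeing the data).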

Additional observations from a re-analysis of the deposited data

How the results depend on the processing

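Over all alternatives, 332 of 350 log2 fold changes of the 7 genes kept their direction and their side of the threshold or stayed within the replicate spread. Trim59 and Galnt3 kept their direction against WT in every alternative run: −1.56 to −1.30 and −2.68 to −2.27 for APP/PS1, and −1.60 to −1.28 and −3.52 to −2.99 with N-AS. For N-AS against APP/PS1, Trim59 reversed from 0.02 to −0.01 with total counts, −0.007 with upper-quartile normalization, −0.003 with library numbers as a covariate and −0.046 without WT 3 and N-AS 3, and ran from −0.063 to 0.073 with single libraries left out; Smc4 reversed from −0.07 to 0.056 without WT 3 and N-AS 3 and ran from −0.18 to 0.058. Against WT, Ift80 in APP/PS1 ran from −0.034 to 0.20 and Ttc21b from −0.18 to 0.067 (0.067 without WT 3 and N-AS 3), and Ttc21b with N-AS from −0.038 to 0.18. All these reversals lie near 0 and their cause was not tested.

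Within library numbers 7 to 10, Trim59 was at −1.06 in APP/PS1 and −0.85 with N-AS against WT; Ift80 (−0.10) in APP/PS1, Kpna4 (−0.13) and Ttc21b (−0.26) with N-AS against WT, and Ttc21b (−0.10) with N-AS against APP/PS1 reversed. Within 1 to 6, N-AS against APP/PS1 gave Trim59 −0.09, Galnt3 −0.12, Smc4 0.21 and Csrnp3 −0.11. Without WT 3 and N-AS 3, Trim59 with N-AS was at −1.60 against WT.

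The genes called in APP/PS1 against WT (649) became 1055 with library numbers as a covariate, 410 with the 2 groups alone, 1345 by DESeq2, 1058 without WT 3 and N-AS 3, and 299 to 923 with single libraries left out (under 649 by over 1.5 times without WT 1, WT 2, APP/PS1 2, APP/PS1 3 or APP/PS1 4). N-AS against APP/PS1 (0) became 79 by DESeq2, 1 without WT 3 and N-AS 3, and 0 to 1 with single libraries left out (1 without N-AS 1). N-AS against WT (35) became 64 with library numbers, 2 with the 2 groups alone, 188 by DESeq2, 20 by limma-voom, 163 without WT 3 and N-AS 3, and 1 to 116 with single libraries left out (1 to 5 without WT 1, WT 2, N-AS 1 or N-AS 2, 57 without WT 3 and 116 without N-AS 3). By list, for APP/PS1 against WT, the Trim59 neighbours went from 1 to 2 and the importins from 0 to 1 without WT 3 and N-AS 3 (Kpna4 in both); the Galnt3 neighbours went to 1 by DESeq2 (Gca); the GalNAc transferases to 1 by DESeq2 and without WT 3 and N-AS 3 (Galnt6); and the Trim genes from 1 to 3 with total counts, 2 with upper-quartile normalization, 4 by DESeq2 and 2 without WT 3 and N-AS 3 (Trim46, which was lower, is among these with the first 3).

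Libraries of different groups share only a replicate number: deviations of same-numbered libraries correlated from −0.47 to 0.35 over the 3 comparisons. The replicate block, without APP/PS1 replicate 4, left 324 genes for APP/PS1 against WT and 6 for N-AS against WT, and Mfsd1 (adjusted p = 0.0799) and Trim30d (adjusted p = 0.0711) missed the threshold with it; no call of the 7 genes changed. Galnt3 rested on 20 to 97 reads per APP/PS1 library with or without N-AS, the least depth of the 7 genes.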

Other observations

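The hairpins Mir15b and Mir16-2 lie inside Smc4 on its strand. Each had 3 to 14 reads per library, and the counts of both were identical in all 10 libraries; the libraries were not made for small RNA, and these values went into no comparison.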
